A study of Mus musculus with 8 samples.

Results

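The genes described here encode the extracellular and membrane parts of Wnt signalling: the Wnt ligands, their Frizzled receptors, the co-receptors LRP5 and LRP6, and the secreted Frizzled-related and Dickkopf inhibitors. They were chosen by gene symbol from the array's annotation, without regard to their values, and 41 of the 22180 named genes matched. These were 19 Wnt genes, 10 Frizzled genes, Lrp5 and Lrp6, 5 genes of secreted Frizzled-related proteins (Sfrp1, Sfrp2, Sfrp4, Sfrp5 and Frzb), 4 Dickkopf genes and Fzd10os, a transcript annotated opposite Fzd10 that encodes no receptor. Gene expression had been measured on Affymetrix arrays in hearts of mice of strain C57Bl6N, all male, harvested 1 week after they had undergone aortic banding by TAC (transverse aortic constriction), an operation in which the aortic arch is narrowed so that the left ventricle pumps against raised pressure. The 4 floxed control hearts carry recombination sites at the targeted allele and the other 4 are labelled as knockouts of CITED4, a transcriptional co-regulator. The Cre driver, whether the controls carried Cre, the age of the mice and the part of the heart taken are not stated in the labels. There was no unoperated heart, so the comparison is between genotypes under pressure load.

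Wnts are lipid-modified secreted proteins that bind the cysteine-rich domain of a Frizzled receptor. With LRP5 or LRP6 the complex stabilises beta-catenin, which then acts with TCF/LEF factors on target genes, while other Wnt and Frizzled pairs signal without beta-catenin. Secreted Frizzled-related proteins carry a Frizzled-like domain and bind Wnts outside the cell, and Dickkopf proteins block the LRP co-receptors. In the adult heart the pathway is known for its engagement after injury, where fibroblasts are a source of its secreted modulators.

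Values are log2 signals of 1 probe set per gene, so 1 unit is a doubling. Signals of different genes come from different probes and are not set against each other. A gene was tested when its mean over the 8 arrays reached 3.80, the 40th percentile of all probe sets. Array medians lay between 4.29 and 4.33, and correlations between arrays between 0.979 and 0.988. The 12 ventricular cardiomyocyte markers all passed this filter, with mean levels of 11.50 to 11.61 in control and 11.17 to 11.57 in knockout hearts. Cited4, the targeted gene, was at 5.76 to 6.22 in control and 4.83 to 5.26 in knockout hearts, a difference of -0.91 ± 0.12 (SE; limma adjusted p = 0.277, exact two-sided permutation p = 0.0286, the smallest that 4 against 4 arrays allow). Every knockout heart was below every control heart, but the knockout signal was 53.1% of the control signal and stayed above the filter, and the sources used here do not say whether this probe set covers the deleted sequence. The labels number the hearts but do not say how they were assigned to litters or array runs, so p-values measure only the spread between these samples.

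Of the 41 members, 31 passed the filter and 10 did not. Those 31 are not the whole family: 7 Wnt genes, Fzd3, Fzd10 and Fzd10os stayed below it. With limma over all 15086 genes tested, 0 members and 0 genes passed an adjusted p of 0.05. The members at an unadjusted p under 0.05 were 4, Dkk3, Sfrp1, Fzd8 and Fzd9, all with the higher mean in the knockout. They were 12.9% of the members tested, where 11.2% of all genes tested reached this level (5.64% higher and 5.61% lower), so the share lay near the background. The knockout and control values did not overlap in 2 members, Fzd6 and Wnt7b, or 6.45% of those tested against 5.23% of all genes. The mean was higher in the knockout for 22 members and lower for 9 (71.0% higher, against 51.2% of all genes), with a median difference of 0.06 where that of all genes tested was 0.0038. With single arrays left out the median was 0.023 to 0.089 and 17 to 25 members were higher, the lowest of both without knockout replicate 4. Without knockout replicates 1 and 4, a choice made after seeing the data, the median was -0.0081 and 14 members were higher. In the plot of differences the widest intervals are those of Sfrp2, Sfrp1, Frzb, Fzd2 and Dkk3.

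**Figure D1:**
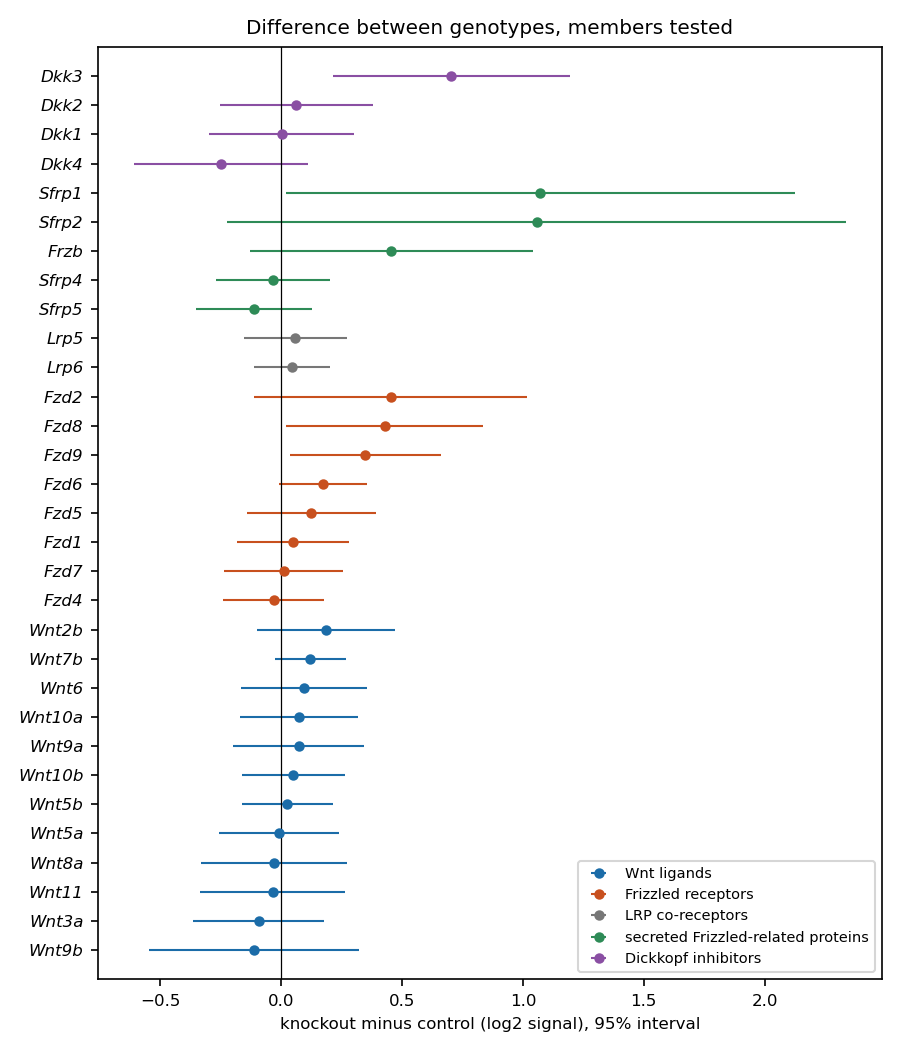
Difference in log2 signal, knockout minus control, of the 31 members tested (points, coloured by subfamily) with limma's 95% interval (lines). Most points lie within 0.2 of 0; Sfrp1 at 1.07, Sfrp2 at 1.06 and Dkk3 at 0.70 lie farthest to the right, and no member passed the adjusted threshold.

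Of the members tested, Sfrp2, Sfrp1 and Frzb, genes of secreted Frizzled-related proteins, differed most between hearts of 1 genotype. Sfrp1, a secreted Wnt-binding inhibitor, was at 8.72, 7.52, 7.26 and 7.96 in control replicates 1 to 4 and at 10.02, 8.17, 7.94 and 9.62 in knockout replicates 1 to 4. Knockout replicates 1 and 4 lay above every control, while knockout replicates 2 and 3 lay within the control range. The group means were 7.86 ± 0.64 and 8.94 ± 1.03 (SD, n = 4 per group), a difference of 1.07 ± 0.47 (SE; 95% interval 0.02 to 2.13), or 2.10-fold (limma unadjusted p = 0.0468, adjusted p = 0.444; exact permutation p = 0.171). Without knockout replicate 1 the difference was 0.71, and without knockout replicates 1 and 4 together it was 0.19 ± 0.35.

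Sfrp2, an inhibitor of the same family that activated fibroblasts secrete, had the same 3 highest hearts, knockout replicates 1 and 4 and control replicate 1; it, Frzb and Fzd2 are described in full because of their values. Its control values were 7.94, 5.89, 6.03 and 6.26 and its knockout values 8.54, 7.24, 6.13 and 8.45. Control replicate 1 stood 1.67 above the next control, and knockout replicate 3 lay among the other controls. The means were 6.53 ± 0.95 and 7.59 ± 1.14, and the difference of 1.06 ± 0.58 (SE; -0.23 to 2.34) did not pass (limma adjusted p = 0.502; exact permutation p = 0.200). It was 0.74 to 1.54 with single arrays left out and 0.15 ± 0.57 without knockout replicates 1 and 4. A second probe set for Sfrp2 had a smaller difference, 0.28, and was highest in knockout replicates 4 and 1 too.

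Frzb, the third Frizzled-related protein, was at 8.01, 7.00, 6.94 and 7.07 in controls and 8.10, 7.55, 7.18 and 8.01 in knockouts. Control replicate 1 again reached the level of knockout replicates 1 and 4. Its difference was 0.45 ± 0.26 (SE; limma adjusted p = 0.522; exact permutation p = 0.171), 0.71 without control replicate 1, and 0.11 without knockout replicates 1 and 4. The remaining members of the family lay close to the filter: Sfrp4 differed by -0.03 ± 0.11 and Sfrp5 by -0.11 ± 0.11, and their values spanned 3.65 to 4.12 over both groups.

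The promoters of Sfrp2 and Frzb are shown because these genes had their highest values in the same hearts, a choice made after the values were seen. Fzd5 had the same highest hearts and also had a promoter window, which is not printed. Promoter windows from RefSeq (GRCm38.p6) matched 26 of the 41 symbols; Sfrp1 and Dkk3 were not matched. The 250 bases before the annotated start were searched on both strands for 6 motifs. These were the TCF/LEF core ATCAAAG, the TEAD core GGAATG, the AP-1 motif TGANTCA, the AP-2 motif GCCNNNGGC, the SMAD palindrome GTCTAGAC and the TATA box TATAAA, none of which was found overlapping another in these windows. The Sfrp2 window, chr3:83766071-83766320 on the plus strand, held none of them, and neither did the Fzd5 window. The Frzb window, chr2:80447397-80447646 on the minus strand, held 1 AP-2 match, shown in capitals, 152 to 144 bases before the start.
Sfrp2: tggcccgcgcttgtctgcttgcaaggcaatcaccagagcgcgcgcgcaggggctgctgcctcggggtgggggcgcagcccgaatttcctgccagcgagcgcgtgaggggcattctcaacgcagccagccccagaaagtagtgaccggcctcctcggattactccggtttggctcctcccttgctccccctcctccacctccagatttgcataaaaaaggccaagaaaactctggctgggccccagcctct
Frzb: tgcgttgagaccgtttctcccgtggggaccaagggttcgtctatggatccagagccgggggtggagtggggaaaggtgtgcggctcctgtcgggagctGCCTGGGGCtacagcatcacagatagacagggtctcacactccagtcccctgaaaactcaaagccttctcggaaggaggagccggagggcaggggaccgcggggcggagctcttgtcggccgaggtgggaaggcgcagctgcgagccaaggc
Of all 32851 promoter windows of this length, 13.7% held an AP-2 match, 12.6% a TEAD match, 12.4% a TATA match, 6.75% an AP-1 match, 3.21% a TCF/LEF match and 0.167% the SMAD letters. The windows had a GC content of 63.6% for Sfrp2 and 64.4% for Frzb, where the median of all windows was 52.4%. A match is a description of these letters only.

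Among the Dickkopf genes only Dkk3 had an unadjusted p under 0.05. Dkk3 encodes a divergent family member that does not share the clear LRP-blocking role of DKK1. It was at 6.43, 5.87, 5.41 and 5.85 in control hearts and 6.74, 6.72, 6.07 and 6.85 in knockout hearts. Of the knockouts, 3 lay above every control and replicate 3 lay below control replicate 1. The means were 5.89 ± 0.42 and 6.60 ± 0.35 (SD, n = 4 per group), a difference of 0.70 ± 0.22 (SE; 0.21 to 1.19), or 1.63-fold (limma unadjusted p = 0.00958, adjusted p = 0.421; exact permutation p = 0.0571). It stayed between 0.54 and 0.88 with single arrays left out and was 0.50 ± 0.28 without knockout replicates 1 and 4. Dkk3 is also an atrial marker, and knockout replicate 2 had the highest mean of the 7 atrial markers that passed the filter, a list that includes Dkk3. That mean deviation was 1.75 in this heart, -0.34 to -0.19 in the other knockouts and -0.41 to 0.09 in controls, while Bmp10 was below the filter. In this heart Sln (9.31) and Myl7 (9.02) stood far above all other hearts. Not every gene of the list was highest there: Nppa was highest in knockout replicate 1 and Dkk3 in knockout replicate 4. Without knockout replicate 2 the Dkk3 difference was 0.66. Dkk1 and Dkk2, which bind LRP5 and LRP6, differed by 0.0018 ± 0.13 and 0.06 ± 0.14, and Dkk4 by -0.25 ± 0.16.

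**Figure D2:**
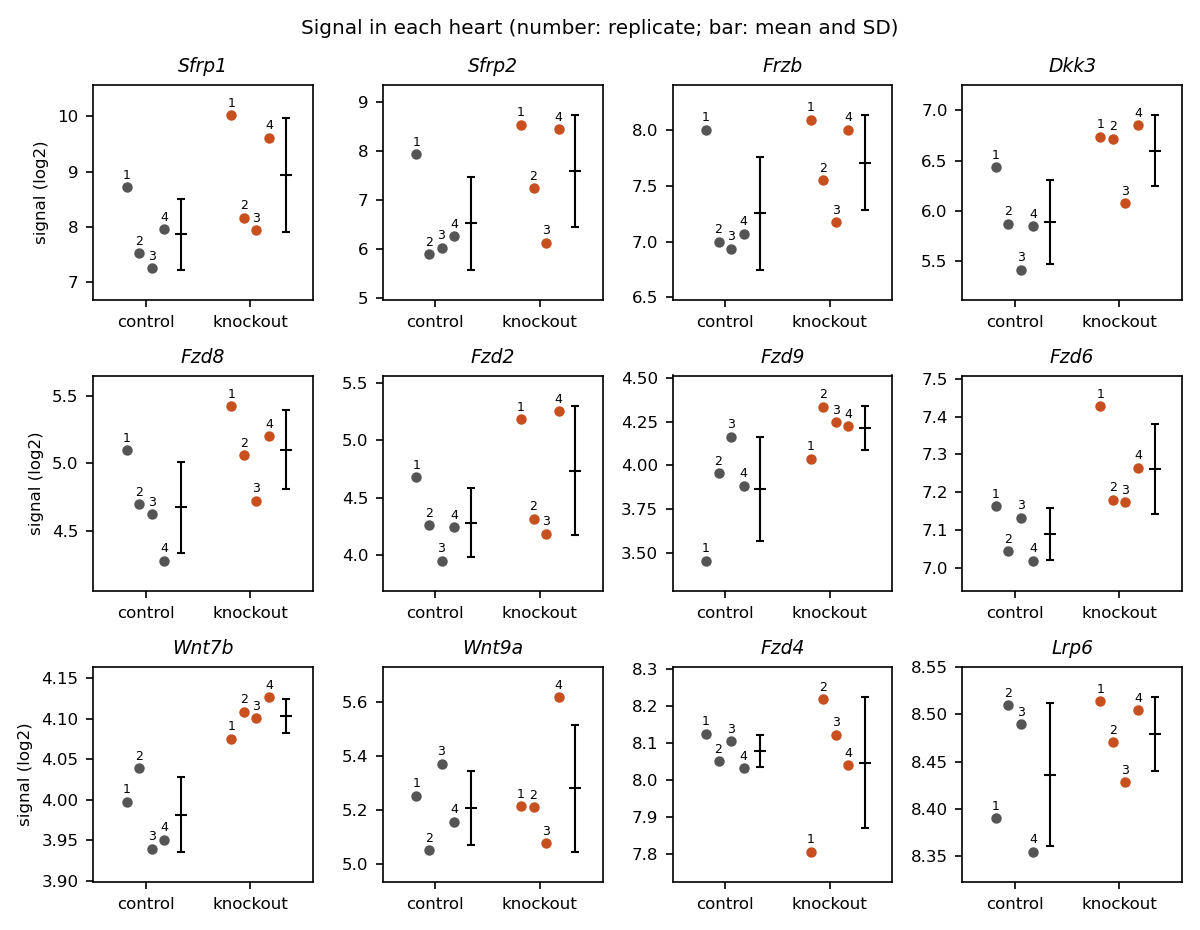
Log2 signal of 12 members in each heart (points; numbers are replicates, which have no order) with the group mean and SD (bars); each panel has its own axis, which does not start at 0. Knockout replicates 1 and 4 and control replicate 1 are the high points for Sfrp1, Sfrp2 and Fzd2, while Fzd6 and Wnt7b have no overlap between the groups at much smaller differences of 0.17 and 0.12.

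The Frizzled receptors had 7 members higher and 1 lower of the 8 that passed the filter, with a median difference of 0.15. Fzd8 was at 5.09, 4.69, 4.62 and 4.28 in controls and 5.42, 5.06, 4.72 and 5.20 in knockouts. Control replicate 1 exceeded knockout replicates 2 and 3, so the groups overlapped. The difference was 0.43 ± 0.18 (SE; limma unadjusted p = 0.0415, adjusted p = 0.438; exact permutation p = 0.114), 0.30 to 0.57 with single arrays left out and 0.22 ± 0.21 without knockout replicates 1 and 4. Fzd2, a receptor for WNT5A among others, was at 4.68, 4.26, 3.95 and 4.24 in controls and 5.18, 4.32, 4.19 and 5.25 in knockouts. Only knockout replicates 1 and 4 exceeded all controls. Its difference of 0.45 ± 0.25 (limma adjusted p = 0.512; exact permutation p = 0.229) became -0.03 ± 0.18 without those arrays.

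Fzd9 had another order of hearts. Its control values were 3.45, 3.96, 4.16 and 3.88 and its knockout values 4.04, 4.34, 4.25 and 4.23. Control replicate 1 was the lowest heart and knockout replicate 1 the lowest knockout. The difference of 0.35 ± 0.14 (SE; limma unadjusted p = 0.0318, adjusted p = 0.425; exact permutation p = 0.0571) was 0.43 ± 0.18 without knockout replicates 1 and 4 and 0.21 without control replicate 1. Its mean over all arrays, 4.04, lay near the filter.

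Fzd6, a receptor known for planar polarity signalling, was at 7.16, 7.04, 7.13 and 7.02 in controls and 7.43, 7.18, 7.17 and 7.26 in knockouts. All knockouts lay above all controls, by 0.01 at the closest pair. The difference was 0.17 ± 0.08 (SE; -0.01 to 0.35), or 1.13-fold (limma adjusted p = 0.461; exact permutation p = 0.0286), and the separation was lost when arrays were set to a common median or normalized by quantiles again. Fzd4, which with LRP5 and the ligand norrin guides vessel growth, was at 8.12, 8.05, 8.10 and 8.03 in controls and 7.81, 8.22, 8.12 and 8.04 in knockouts. The controls lay close together, and knockout replicate 1 was the lowest heart. Its difference was -0.03 ± 0.09 (95% interval -0.24 to 0.18; limma adjusted p = 0.916), and 0.05 without knockout replicate 1. Fzd1, Fzd5 and Fzd7 differed by 0.05 ± 0.10, 0.12 ± 0.12 and 0.0095 ± 0.11. Fzd3 was below the filter with values of 3.43 to 4.22, as was Fzd10 with 2.18 to 2.61 and Fzd10os with 2.85 to 3.62.

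Of the LRP co-receptors, Lrp6 had close values in all hearts and Lrp5 spread more. Lrp6 was at 8.39, 8.51, 8.49 and 8.36 in controls and 8.51, 8.47, 8.43 and 8.50 in knockouts. The groups overlapped. Its difference was 0.04 ± 0.07 (SE; 95% interval -0.11 to 0.20; limma adjusted p = 0.842), and a second Lrp6 probe set differed by 0.0015. Lrp5 was at 7.49 ± 0.17 and 7.55 ± 0.08 (SD), a difference of 0.06 ± 0.10 (-0.16 to 0.27). Its control values ran from 7.31 in replicate 4 to 7.71 in replicate 1.

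Of the 19 Wnt ligands 12 passed the filter, 7 with the higher mean in the knockout and 5 with the lower. None of these 12 had an unadjusted p under 0.05, and their median difference was 0.04. Wnt7b was at 4.00, 4.04, 3.94 and 3.95 in controls and 4.08, 4.11, 4.10 and 4.13 in knockouts. The groups did not overlap, and the hearts of each group lay very close together near the filter. Its difference was 0.12 ± 0.07 (SE; limma adjusted p = 0.501; exact permutation p = 0.0286), or 1.09-fold.

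Wnt9a was chosen because its probe set had the highest mean of the ligands' probe sets, which gives no order of transcript levels. It was at 5.25, 5.05, 5.37 and 5.16 in controls and 5.21, 5.21, 5.08 and 5.62 in knockouts. Knockout replicate 4 was the highest heart and knockout replicate 3 lay low among the controls. Its difference was 0.07 ± 0.12 (limma adjusted p = 0.847) and -0.04 without knockout replicate 4. Wnt2b, of the group known for beta-catenin signalling, differed by 0.18 ± 0.13. The ligands best known for signalling without beta-catenin differed little relative to their errors: Wnt5a by -0.0091 ± 0.11, Wnt5b by 0.02 ± 0.08 and Wnt11, which acts in heart development, by -0.04 ± 0.13. Wnt3a, a strong activator of beta-catenin, differed by -0.09 ± 0.12, and Wnt10b by 0.05 ± 0.10. The differences of Wnt6, Wnt8a, Wnt9b and Wnt10a lay between -0.11 and 0.10, with errors of 0.11 to 0.19.

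The ligands below the filter were Wnt1, Wnt2, Wnt3, Wnt4, Wnt7a, Wnt8b and Wnt16, with mean signals over the 8 arrays of 2.62 for Wnt16 to 3.78 for Wnt2. Wnt2 was just below the filter and Sfrp5 (3.85) just above it. Wnt2 was at 3.93, 3.78, 3.75 and 3.92 in controls and 3.72, 3.72, 3.73 and 3.71 in knockouts. All its knockouts lay below all its controls, and it was not tested because its mean was below the filter. These arrays cannot say that a ligand below the filter was absent.

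Spread between hearts of 1 genotype was widest in the family for Sfrp2 and Sfrp1. The pooled SD within groups was 1.05 for Sfrp2, 0.86 for Sfrp1, 0.47 for Frzb, 0.45 for Fzd2 and 0.39 for Dkk3, where the median of all genes tested was 0.15. Sfrp2 and Sfrp1 lay at the 99.9th and 99.8th percentile of that spread. At the other end, Wnt7b (0.04) and Lrp6 (0.06) lay at the 0.491th and 3.98th percentile. Knockout replicates 1 and 4 were the 2 highest hearts for 10 members, Sfrp1, Sfrp2, Frzb, Dkk3, Fzd1, Fzd2, Fzd5, Fzd6, Fzd8 and Wnt10a. This is 32.3% of those tested, and 11.3% of all genes tested had that order, which was chosen after the values were seen.

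**Figure D3:**
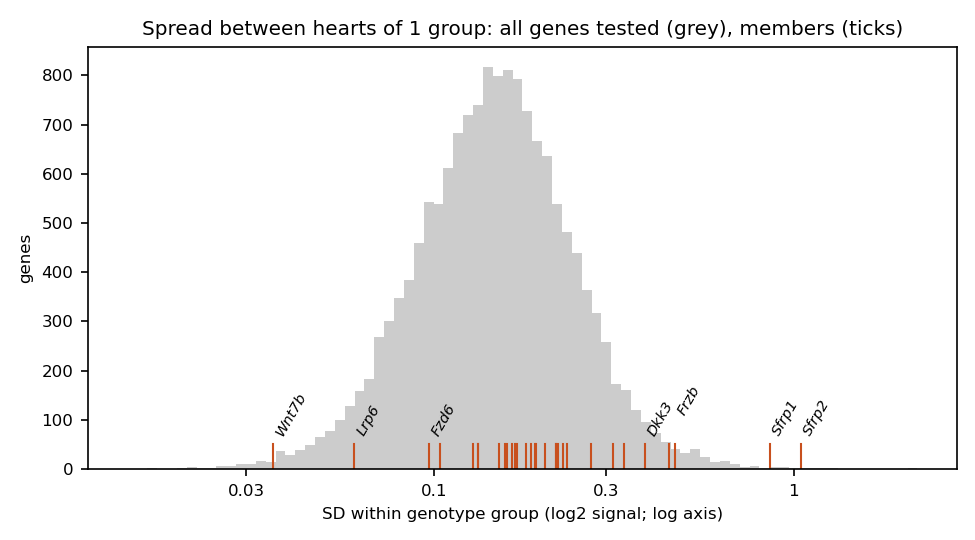
SD of log2 signal within genotype groups for the 15086 genes tested (grey bars, number of genes; logarithmic horizontal axis) and for the 31 members (ticks). Sfrp1 at 0.86 and Sfrp2 at 1.05 lie at the right edge, and Wnt7b at 0.04 at the left.

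The hearts with high Sfrp1, Sfrp2 and Frzb were those with high activated fibroblast markers. All 12 genes of that list passed the filter and all 12 had the higher mean in the knockout, with a median difference of 0.97. At an unadjusted p under 0.05 there were 8 (66.7%), where 11.2% of all genes reached this level in either direction and 5.64% were higher. Their mean level was 7.43 to 8.84 in control and 7.93 to 9.46 in knockout hearts. The mean deviation of the list was 1.10 in knockout replicate 1, 1.03 in knockout replicate 4 and 0.49 in control replicate 1, and -0.92 to 0.20 in the other 5 hearts. These 3 hearts were also the highest for 8 members, Sfrp1, Sfrp2, Sfrp4, Frzb, Fzd2, Fzd5, Fzd8 and Lrp5 (25.8% of those tested, against 7.05% of all genes). This order was chosen after the values of Sfrp1, Sfrp2 and Frzb were seen, so the part of these genes in the 25.8% was fixed in advance. The smooth muscle and pericyte list, all 9 genes above the filter, was highest in the same 3 hearts, at 0.31, 0.28 and 0.17 in knockout 1, knockout 4 and control 1 and -0.29 to -0.05 in the others; 4 of its genes had the higher mean in the knockout and 5 the lower. The ventricular cardiomyocyte list ran the other way, lowest in knockout replicates 1 (-0.30) and 4 (-0.23) and 0.02 to 0.13 in the other 6 hearts. Of its 12 genes 11 had the lower mean in the knockout, with a median difference of -0.16. At an unadjusted p under 0.05 there were 4, all lower (33.3%), where 11.2% of all genes reached this level in either direction and 5.61% were lower. The mean deviation of the resting fibroblast list spanned less, -0.15 to 0.07 in controls and -0.05 to 0.16 in knockouts, with 10 of 10 genes above the filter. Its genes went both ways, 6 with the higher mean in the knockout and 4 with the lower. At an unadjusted p under 0.05 there were 3 higher and 1 lower (40%), against 11.2% of all genes. In the smooth muscle and pericyte list 2 higher and 1 lower reached this level (33.3%). The part of these markers in the differences of the Wnt family was not tested. In bulk heart RNA more cells of a type and more RNA per cell cannot be told apart.

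**Figure D4:**
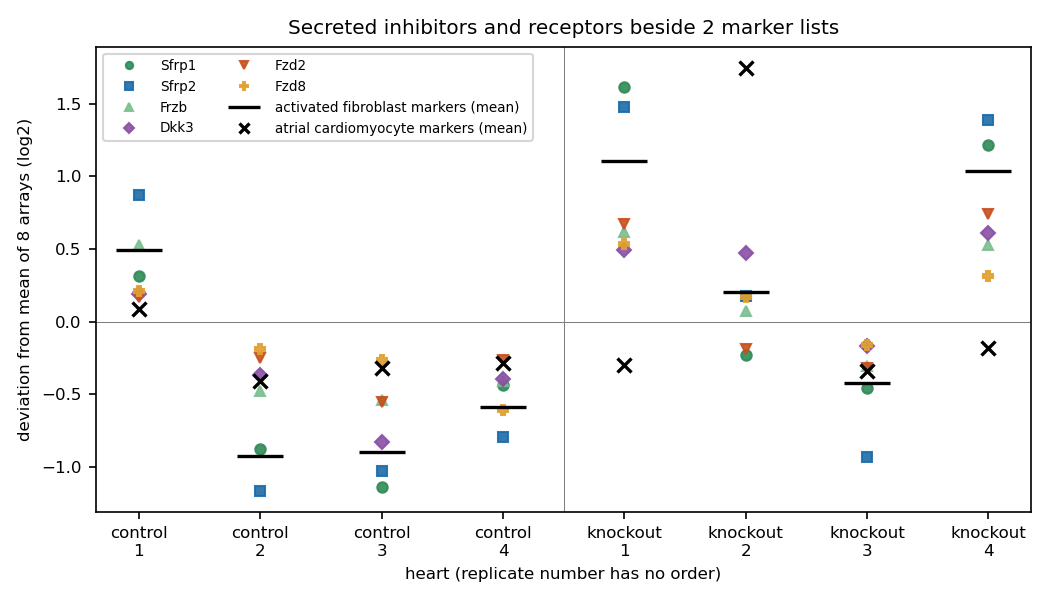
Deviation of log2 signal from the mean of the 8 arrays in each heart for 6 members (coloured symbols), beside the mean deviation of the activated fibroblast markers (black bars) and the atrial markers (crosses). The bars are highest in knockout 1 (1.10), knockout 4 (1.03) and control 1 (0.49), where Sfrp1, Sfrp2 and Fzd2 are highest too. The mean of the atrial markers is high in knockout 2 only (1.75), which does not hold for each gene of that list.

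Downstream of the receptors, the list of genes induced by beta-catenin gave 11 of 18 tested members higher and 7 lower, with a median of 0.07. At an unadjusted p under 0.05 there were 5, all higher, and 0 passed after adjustment. These 5 were 27.8% of those tested, where 11.2% of all genes reached this level in either direction and 5.64% were higher. Ccn4, a matricellular gene that also belongs to the activated fibroblast list, was at 5.62, 4.23, 4.46 and 4.16 in controls and 6.60, 5.46, 4.83 and 6.66 in knockouts, a difference of 1.27 ± 0.44 (SE). Knockout replicates 1 and 4 were again the highest, with control replicate 1 next. Ccn5, its relative, differed by 0.66 ± 0.24, Cd44, a hyaluronan receptor gene, by 0.38 ± 0.12 and Apcdd1, which encodes a membrane inhibitor of Wnt signalling, by 0.49 ± 0.17. Nkd2, which encodes a Dishevelled-binding inhibitor, differed by 0.86 ± 0.32. For Ccn5, Cd44, Apcdd1 and Nkd2 too, knockout replicates 1 and 4 lay above all other hearts. Control replicate 1 came next for Ccn5 and Nkd2, but not for Cd44 and Apcdd1. Of the 7 lower genes, Tnfrsf19 (-0.21 ± 0.10) and Ccnd1 (-0.27 ± 0.15) had the smallest p, neither under 0.05 unadjusted. Ccnd1 was lowest in the same knockout replicates, at 7.81 in 1 and 7.91 in 4.

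The feedback gene Axin2, the target most used as a readout of beta-catenin, was at 5.31, 5.49, 5.41 and 5.36 in controls and 5.10, 5.30, 5.44 and 5.34 in knockouts. Its lowest heart was knockout replicate 1, where Ccn4 was high. The difference was -0.10 ± 0.09 (SE; limma adjusted p = 0.677). Lef1, both a factor and a target, differed by 0.06 ± 0.12, and Ctnnb1, which encodes beta-catenin, by 0.04 ± 0.08. The feedback genes Nkd1 (-0.0086 ± 0.15) and Notum (-0.06 ± 0.13) were likewise not among the 5 at an unadjusted p under 0.05.

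Among intracellular components 15 of 26 tested were higher (median 0.0084) and 3 had an unadjusted p under 0.05, or 11.5%, near the 11.2% of all genes. These were Nkd2, Dact1 (0.41 ± 0.16) and Dact3 (0.38 ± 0.14); the Dact genes encode binding partners of Dishevelled. Dvl1, a Dishevelled gene, differed by 0.14 ± 0.10. Of the TCF/LEF factors and co-regulators 7 of 15 were higher (median -0.01), and 2 had an unadjusted p under 0.05 (13.33%), Pygo1 and Tle3. Pygo1, which encodes a beta-catenin co-activator, was at 6.70, 6.91, 6.87 and 6.83 in controls and 6.27, 6.59, 6.48 and 6.57 in knockouts. All knockouts lay below all controls, with a difference of -0.35 ± 0.09 (SE; limma unadjusted p = 0.00333, adjusted p = 0.421). Tle3, a co-repressor gene, differed by 0.25 ± 0.09, also without overlap, and Tle4 by -0.10 ± 0.08. Crebbp, which encodes CBP, a partner of both beta-catenin and CITED4, was at 9.06 ± 0.02 and 8.97 ± 0.04 (SD). Its difference was -0.09 ± 0.07 with no overlap (limma unadjusted p = 0.187, adjusted p = 0.597). In this list 1 gene was higher and 2 were lower without overlap, or 20%, against 5.23% of all genes.

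Of the genes for Wnt secretion and other extracellular regulators 11 of 16 tested were higher (median 0.03). At an unadjusted p under 0.05 there was 1 (Apcdd1), or 6.25%, below the 11.2% of all genes. Gpc4, a glypican gene, differed by 0.44 ± 0.20. Porcn, which adds the lipid to Wnts, differed by 0.20 ± 0.11, and Wls, which carries them to the surface, by 0.19 ± 0.14. Wif1, a secreted Wnt-binding inhibitor outside the family chosen here, differed by 0.03 ± 0.10. Among other receptors and receptor turnover genes 5 of 9 were higher (median 0.11). An unadjusted p under 0.05 was reached by 1 (11.1%, near the 11.2% of all genes), Ror2, a receptor for WNT5A, at 0.29 ± 0.13. Ptk7, a polarity co-receptor gene, differed by 0.25 ± 0.13, Lrp4 by -0.15 ± 0.10 and Znrf3, the ligase that removes Frizzleds from the surface, by -0.15 ± 0.08.

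**Figure D5:**
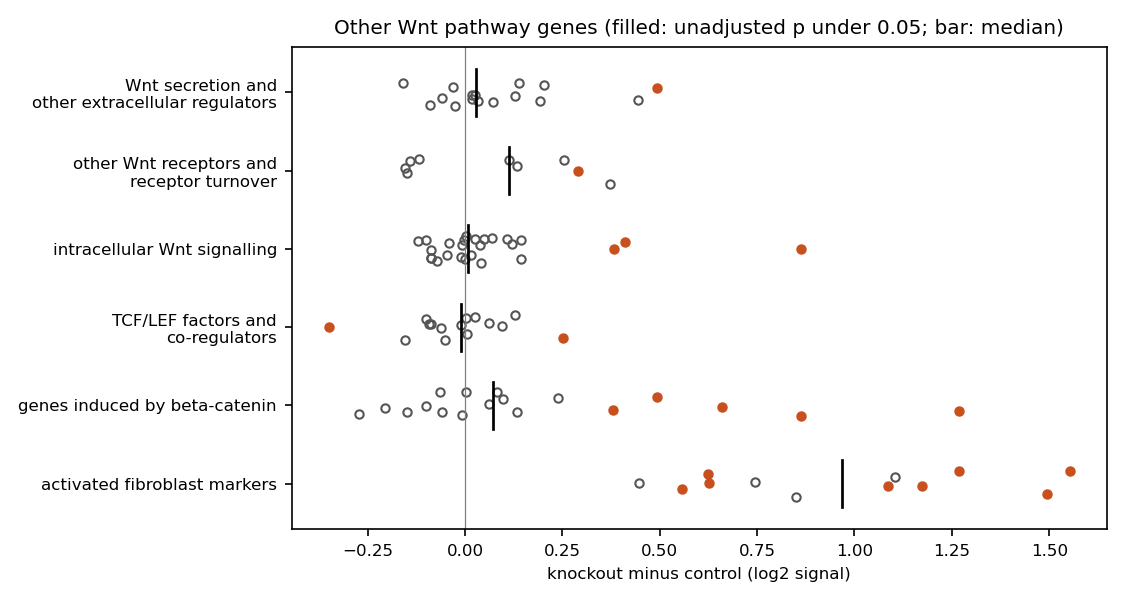
Difference in log2 signal, knockout minus control, of each gene tested in 5 lists of other Wnt pathway genes and in the activated fibroblast list (points; vertical scatter has no meaning; filled where limma's unadjusted p was under 0.05; bars are list medians). The medians of the Wnt lists lie between -0.01 and 0.11, and that of the fibroblast list at 0.97; no gene passed the adjusted threshold.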

How the data were processed

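RNA from the frozen hearts was biotin-labelled for Affymetrix arrays, per the labels. For analysis, the authors deposited 1 log2 value for each of 41345 probe sets on each of 8 arrays. The submitters' processing notes name RMA and limma, with no version. RMA equalises the arrays' distributions, which would hide a shift common to all genes. The genome build behind the probe sets and the hybridisation batches are not stated in the labels.

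Exactly 1 gene symbol was annotated for 23521 probe sets; the 1814 with several and the 16010 without one were not used. Per gene the probe set with the highest mean was kept, and symbols were updated to RefSeq by Entrez identifier for 23328 probe sets. Knockout minus control was fitted with limma 3.58.1 in R 4.3.3 (lmFit and eBayes, Benjamini-Hochberg over 15086 genes, threshold 0.05). Errors of differences are limma's SE, and intervals are 95%. Single values were tested by exact two-sided permutation over 70 assignments. The fitting step was tested on simulated data.

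Members given with all 8 values had an unadjusted p under 0.05, no overlap between groups, or the highest mean of their subfamily; of the other Wnt lists up to 4 genes with the smallest p were named, with Axin2, Lef1, Ctnnb1, Wls and Wif1. Nkd1, Notum, Tnfrsf19, Ccnd1, the single marker genes, the other members given with values and the remarks on them were outside this rule. The members, lists and tests were chosen with earlier results of these data known. Alternatives were filters, normalization, probe set means, trend with robust estimation, array weights, a replicate block and leaving out arrays.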

Additional observations from a re-analysis of the deposited data

Results flagged for a closer look

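Of 84 groups of 4 hearts checked, 5 held a heart far from the other 3 of its group, and chance gives about 1 in 20. Frzb in control hearts was highest in replicate 1 at 8.01, with the next control at 7.07. Sfrp4 in knockout hearts was lowest in replicate 2 at 3.68, with the next at 4.06. Wnt10b in control hearts was highest in replicate 2 at 4.31, with the next at 4.15. The mean deviation of the ventricular cardiomyocyte markers in control hearts was lowest in replicate 1, at 0.027 against 0.13 in the next. The mean deviation of the atrial markers in knockout hearts was highest in replicate 2, at 1.75 against -0.19 in the next.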

How the results depend on the processing

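Under all 17 alternatives limma called 0 genes and 0 members, and Cited4 kept its direction (-0.99 to -0.83 with single arrays left out). Without a filter 41 members could be tested, and 5 had an unadjusted p under 0.05, with Wnt3 added (9.03% of all genes did). With array weights the number was 6 (13.8% of all genes). The number of members at an unadjusted p under 0.05 was 2 when the filter was moved to the 60th percentile. There 13 members could be tested, and 13.7% of all genes reached this level. With single arrays left out the number was 1 to 6 (6.54% to 15.8% of all genes). The number without overlap was 1 with that filter (6.03% of all genes), with quantile normalization again (5.04%) and with a common median (5.30%). It was 3 without a filter, with Wnt2 added (4.44% of all genes), and 2 to 5 with single arrays left out (6.89% to 14.01% of all genes). Without knockout replicates 1 and 4 together, added after seeing the data, these numbers were 1 and 4 (4.09% and 12.4% of all genes), and the median difference was -0.0081. Of the tested members given with all 8 values, those whose direction turned were Fzd4 (-0.088 to 0.049 with single arrays left out and 0.092 without both arrays), Wnt9a (-0.041 to 0.14 and -0.064) and Fzd2 (-0.031 without both). Of the 31 members 13 kept their sign in each alternative that tested them (16 or 17), and 18 turned in at least 1, most often Dkk1 (in 7). The groups share replicate numbers, and deviations of same-numbered hearts correlated by 0.36, 0.0087, 0.28 and -0.03. Controls 1 and 3 correlated best with the knockout of their own number, and controls 2 and 4 with knockout 3. These correlations cannot decide whether the numbers pair hearts. The labels do not say that they do, so the main fit used no pairing. With the replicate block 7 members had an unadjusted p under 0.05 (14.4% of all genes did), 0 passed after adjustment, and Sfrp1 had the smallest adjusted p of the members (0.144). Its difference was 1.07 ± 0.17 (SE) with the block (limma unadjusted p = 0.00033), where the SE without it was 0.47. With trend and robust estimation the SE of Sfrp1 was 0.56 (limma unadjusted p = 0.0959). The 4 members under 0.05 were then Dkk3, Fzd6, Fzd8 and Fzd9 (11.8% of all genes were under it). The number of arrays, and signals near the filter for most ligands, limit all values.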
